A study of Mus musculus with 234 samples.

Results

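The genes described here encode the nuclear subunits of respiratory complexes II, III and V and cytochrome c. They were taken from the count table by symbol: Sdha, Sdhb, Sdhc, Sdhd, Cyc1, Cycs and every symbol starting with Uqcr or Atp5, without pseudogenes, with a count in at least 10% of all cells. This gave 31 genes of 55538 features, of which 10663 reached the detection limit. Complex II contributed 4 genes (Sdha, Sdhb, Sdhc, Sdhd) and complex III contributed 9 (Cyc1, Uqcrc1, Uqcrc2, Uqcrfs1, Uqcrb, Uqcrh, Uqcrq, Uqcr10, Uqcr11). Cytochrome c was represented by Cycs. The remaining 17 belonged to complex V (Atp5a1, Atp5b, Atp5c1, Atp5d, Atp5e, Atp5f1, Atp5g1, Atp5g2, Atp5g3, Atp5h, Atp5j, Atp5j2, Atp5k, Atp5l, Atp5md, Atp5mpl, Atp5o). Each of the 31 had a count in at least 91.5% of cells and passed the filter on low counts in every comparison. A second row named Atp5o had a count in 0 cells and was left out.

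Complex II (succinate dehydrogenase) oxidises succinate in the tricarboxylic acid cycle and hands the electrons to ubiquinone. Complex III passes them from ubiquinol to cytochrome c and pumps protons across the inner mitochondrial membrane. Complex V, the ATP synthase, lets the protons flow back and makes ATP, most of which the heart spends on contraction and calcium transport. Complex II is encoded in the nucleus alone, whereas complexes III and V also hold subunits encoded in mitochondrial DNA.

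Single cardiomyocytes (CMs) were picked by hand after Langendorff dissociation of hearts of 5 mice and sequenced with SMART-seq2, which reads along whole transcripts. The transgenic mice carried PGK-Cre and a human BAG3P209L-eGFP construct under the CAG promoter, inserted into Rosa26 in 1 embryonic stem cell clone. Their CMs were labelled bright or dim by eGFP fluorescence: M25 (21 bright and 18 dim cells) and M116 (59 and 50 cells) were homozygous, and M72 (27 and 26 cells) was heterozygous. Control CMs came from M26 (24 cells) and M73 (9 cells), both titled wt in the labels, while the methods define control siblings more widely, as wild type or with PGK-Cre or the floxed construct alone. The strain label is C57BL/6 for controls and PGKcre:BAG3P209L for transgenic mice, and the methods give a mixed genetic background that includes C57BL/6Ncr and CD-1. The methods give an age of 2 weeks, and that of M72 is not given. PGK-Cre is not limited to CMs, and no label names a mouse with wild-type human BAG3, so effects of the mutation and of added human BAG3 cannot be told apart.

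The mouse was the replicate, so the counts of the cells of a mouse with the same label were summed, giving 8 sums of 4096609 (M73) to 40508124 counts (bright CMs of M116). With 2 mice in a group, p-values rest on very few animals, and the heterozygous mouse has values but no test. Ribosomal RNA rows took 15.3% of counts in M26 and 30.2% in M73, 15.2% to 19.0% in the homozygous sums and 24.6% to 25.001% in M72. Human BAG3 counts stood at 294 and 233 CPM (counts scaled to the total of a sum) in bright CMs of M25 and M116 and at 10.7 and 99.6 CPM in their dim CMs, against 0.408 and 0.488 CPM in the controls. In M72 the order was turned, with 105 CPM in cells labelled bright and 251 CPM in cells labelled dim. The 8 CM markers, none of which was at 0 in any sum, made up 86722 to 93440 CPM in control, 75613 to 77394 CPM in homozygous bright and 75336 to 83166 CPM in homozygous dim CMs. Summed fibroblast markers ranged from 33.0 to 138 CPM in control and from 74.5 to 2473 CPM in homozygous bright CMs, endothelial markers from 235 to 318 CPM in control, from 155 to 161 CPM in homozygous bright and from 322 to 451 CPM in homozygous dim CMs, and immune markers from 2.09 to 11.96 CPM in control, from 0.264 to 1.9996 CPM in homozygous bright and from 62.5 to 72.7 CPM in homozygous dim CMs. The library names in the labels carry a code whose meaning is not stated: M25 and M26 share 1 code, M73 and M72 share another, and M116 alone has the remaining pair, so code and mouse cannot be told apart for M116.

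The sequences of subunit c, the membrane ring that turns as protons pass through the ATP synthase, are shown because its 3 genes encode the same mature protein. They are Atp5g1 (chr11:96068852-96075670 of GRCm38, GENCODE M21), Atp5g2 (chr15:102662864-102672352) and Atp5g3 (chr2:73908447-73911326), all on the minus strand. Their coding sequences are shown from the first codon of the mature subunit to the stop codon, as 228 bases with the bases unlike Atp5g1 in capitals.
Atp5g1: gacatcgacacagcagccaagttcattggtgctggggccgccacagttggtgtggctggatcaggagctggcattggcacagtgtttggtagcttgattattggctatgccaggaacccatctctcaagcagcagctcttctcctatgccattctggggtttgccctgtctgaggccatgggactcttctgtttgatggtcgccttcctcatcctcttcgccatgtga
Atp5g2: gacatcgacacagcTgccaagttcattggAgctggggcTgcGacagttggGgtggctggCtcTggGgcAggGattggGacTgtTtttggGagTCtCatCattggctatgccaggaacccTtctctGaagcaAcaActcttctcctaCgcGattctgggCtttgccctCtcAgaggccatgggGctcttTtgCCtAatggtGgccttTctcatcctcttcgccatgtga
Atp5g3: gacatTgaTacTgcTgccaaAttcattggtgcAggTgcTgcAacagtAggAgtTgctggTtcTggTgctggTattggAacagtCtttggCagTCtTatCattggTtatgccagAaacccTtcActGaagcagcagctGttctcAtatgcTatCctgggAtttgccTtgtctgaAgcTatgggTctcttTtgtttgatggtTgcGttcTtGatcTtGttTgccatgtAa
All 75 residues were the same in the translations of the paralogs, while 34 bases differed between Atp5g1 and Atp5g2 and 46 between Atp5g1 and Atp5g3. The longest run of shared bases with Atp5g1 was 21 in Atp5g2 and 11 in Atp5g3, shorter than a 75-base read. Reads could therefore be told apart between the paralogs, but not from processed copies elsewhere in the genome. Stretches of 75 bases that also occur in transcripts of another annotated gene made up 92.3% of the Atp5g1, 100% of the Atp5g2 and 0% of the Atp5g3 coding sequence. The share was also 100% in Atp5l and Cycs, 97.1% in Atp5md, 53.9% in Atp5h, 51.1% in Uqcrb and 33.7% in Atp5f1, and at most 13.7% in the other members. Levels of these genes are uncertain, because the counting option used leaves out reads with several positions. Atp5k, Atp5e, Uqcrq and the large subunits Sdha, Uqcrc1, Atp5a1, Atp5b and Atp5c1 had no such stretch. Atp5k (chr5:108433244-108434448), Atp5e (chr2:174461072-174464105), Uqcr11 (chr10:80402997-80406830) and Uqcrq (chr11:53427922-53430831), all on the minus strand of GRCm38, are the small subunits to which the results return.

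Promoter sequences are shown for a pair of members among the lowest relative to control in homozygous CMs (Atp5e, Uqcr11) and for the large subunits Atp5b and Sdha, whose levels lay close to control. They come from the 250 bases before the start in RefSeq (GRCm38.p6), without bases inside the gene as annotated by GENCODE M21, and run 5′ to 3′ on the gene's strand. Capitals mark CCAAT (bound by NF-Y), GGGCGG (SP1), GCATGCGC (NRF1) and CCGGAAGT (GABP), on either strand.
Atp5e, chr2:174464106-174464351, minus strand: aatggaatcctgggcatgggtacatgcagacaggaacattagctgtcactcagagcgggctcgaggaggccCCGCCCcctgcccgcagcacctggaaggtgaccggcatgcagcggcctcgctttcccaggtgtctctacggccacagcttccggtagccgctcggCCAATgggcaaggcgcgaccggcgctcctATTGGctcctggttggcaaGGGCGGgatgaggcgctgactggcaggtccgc
Uqcr11, chr10:80406831-80407071, minus strand: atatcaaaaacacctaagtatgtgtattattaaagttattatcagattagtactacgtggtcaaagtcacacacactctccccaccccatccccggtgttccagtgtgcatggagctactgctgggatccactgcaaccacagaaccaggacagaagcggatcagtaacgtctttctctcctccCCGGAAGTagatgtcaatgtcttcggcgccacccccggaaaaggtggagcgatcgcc
Atp5b, chr10:128083057-128083272, plus strand: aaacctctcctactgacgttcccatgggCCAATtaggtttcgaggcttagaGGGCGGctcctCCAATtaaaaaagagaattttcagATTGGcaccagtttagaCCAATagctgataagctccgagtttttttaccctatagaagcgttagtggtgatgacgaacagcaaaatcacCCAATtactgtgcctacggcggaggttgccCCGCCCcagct
Sdha, chr13:74350281-74350490, minus strand: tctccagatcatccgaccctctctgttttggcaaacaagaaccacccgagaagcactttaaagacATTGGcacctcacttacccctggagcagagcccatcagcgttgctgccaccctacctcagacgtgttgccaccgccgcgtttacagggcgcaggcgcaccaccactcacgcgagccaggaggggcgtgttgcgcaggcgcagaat
The RefSeq table held 27 promoters of 24 member genes, which were searched over the full 250 bases. CCAAT was found in 15 of the 27 (55.6%), against 33.9% of 32851 promoters in the table. GCATGCGC was found in 5 (18.5%, against 2.26%), namely Atp5g2, Atp5k, Atp5l, Cycs and Sdhb. CCGGAAGT was found in 3 (11.1%, against 2.88%), namely Atp5h, Uqcr11 and Uqcrh, and GGGCGG in 6 (22.2%, against 32.7%). A further pair of motifs was searched: AAGGTCA (ERR), in Atp5g3 and Atp5l (7.41%, against 4.08%), and AAGATGGC (YY1), in Atp5j (3.70%, against 1.56%). Of the printed promoters, that of Uqcr11 held CCGGAAGT, those of Atp5e and Atp5b both CCAAT and GGGCGG, and that of Sdha CCAAT, so that Atp5e shared its motifs with Atp5b and not with Uqcr11. A match of letters does not show that a factor binds there.

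Levels are normalized CPM, that is CPM scaled by TMM (trimmed mean of M values) factors over the 8 sums, and pairs of values list M26 before M73 for controls and M25 before M116 for homozygous CMs. Sdha, the flavoprotein that oxidises succinate, stood at 958 and 732 in control CMs, 845 and 1013 in homozygous bright CMs, 930.1 and 1084 in homozygous dim CMs, and 837 and 869 in heterozygous bright and dim CMs. Sdhb, which carries the iron-sulfur clusters, stood at 2418 and 1327 in control CMs, 1659 and 1567 in homozygous bright CMs, 1892 and 1599 in homozygous dim CMs, and 1347 and 1333 in heterozygous bright and dim CMs. The Sdhb values of the homozygous mice lay between those of the controls, and for Sdha M25 lay between the controls and M116 above both.

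The membrane anchors Sdhc and Sdhd bind ubiquinone and heme. Sdhc stood at 908 and 570.4 in control CMs, 631 and 552 in homozygous bright CMs, 686 and 523 in homozygous dim CMs, and 653 and 568 in heterozygous bright and dim CMs. Sdhd stood at 715 and 490.1 in control CMs, 699 and 576 in homozygous bright CMs, 700.0 and 583 in homozygous dim CMs, and 329 and 309 in heterozygous bright and dim CMs. The lowest Sdhd values were both in the heterozygous mouse, below the 6 other sums, whereas Sdhc was lowest in M116. As M72 is 1 animal, the low Sdhd level cannot be told apart from a trait of this mouse.

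In complex III, Uqcrc1 and Uqcrc2 are the large core proteins that face the matrix. Uqcrc1 stood at 3015 and 2046 in control CMs, 2292 and 2856 in homozygous bright CMs, 2432 and 2770.5 in homozygous dim CMs, and 2417 and 2043 in heterozygous bright and dim CMs. Uqcrc2 stood at 784 and 370.0 in control CMs, 591 and 581 in homozygous bright CMs, 608 and 590.3 in homozygous dim CMs, and 488 and 429 in heterozygous bright and dim CMs. All homozygous values of both lay between the values of M26 and M73.

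Uqcrfs1, the Rieske iron-sulfur protein, and Cyc1, cytochrome c1, carry the electrons through the complex, and Cycs carries them on to complex IV. Uqcrfs1 stood at 1916 and 1303 in control CMs, 1508 and 1269 in homozygous bright CMs, 1512 and 1287 in homozygous dim CMs, and 1205 and 1088 in heterozygous bright and dim CMs. Cyc1 stood at 1909 and 1237 in control CMs, 1484 and 1485 in homozygous bright CMs, 1578 and 1422 in homozygous dim CMs, and 1408 and 1315 in heterozygous bright and dim CMs. Cycs stood at 1337 and 861 in control CMs, 968 and 906 in homozygous bright CMs, 1189 and 907 in homozygous dim CMs, and 876 and 777 in heterozygous bright and dim CMs. M26 was highest for all 3 genes, and the homozygous values lay between the controls except for Uqcrfs1 in M116.

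The small subunits of complex III have no redox centre and surround the core. Uqcrq, at the ubiquinone-binding side, stood at 2863 and 1961 in control CMs, 1604 and 1180.2 in homozygous bright CMs, 1699 and 1109 in homozygous dim CMs, and 1905 and 1855 in heterozygous bright and dim CMs. Uqcr11, whose values are given because they were low as well, stood at 3194 and 3129 in control CMs, 2017 and 1698 in homozygous bright CMs, 2069 and 1767 in homozygous dim CMs, and 2297 and 2398 in heterozygous bright and dim CMs. Every homozygous value of both genes lay below both controls, and M116 was lower than M25. The heterozygous values also lay below both controls, and above those of the homozygous mice. Uqcrb, Uqcrh and Uqcr10 ranged from 730 to 1840 normalized CPM, with the highest value in control M26 and the lowest in dim CMs of M116.

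In the ATP synthase, the catalytic head F1 holds alpha (Atp5a1) and beta (Atp5b), between which ATP is formed, around the turning gamma subunit (Atp5c1). Atp5a1 stood at 4121 and 3025 in control CMs, 3499 and 3745 in homozygous bright CMs, 3619.5 and 3799.7 in homozygous dim CMs, and 3016 and 2554 in heterozygous bright and dim CMs. Atp5b, the most highly counted member, stood at 7403 and 6529 in control CMs, 6796 and 6585 in homozygous bright CMs, 7115 and 6883 in homozygous dim CMs, and 6159 and 5673 in heterozygous bright and dim CMs. Atp5c1 stood at 2459 and 1992 in control CMs, 2164 and 2046 in homozygous bright CMs, 2348 and 2094 in homozygous dim CMs, and 1871 and 1775 in heterozygous bright and dim CMs. The 4 homozygous sums lay between the controls for all 3, and the lowest sum was dim CMs of M72.

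The small F1 subunit epsilon (Atp5e) and subunit e of the membrane part (Atp5k, which takes part in the pairing of ATP synthases) are given because their values were low. Atp5e stood at 1200.4 and 1255 in control CMs, 855 and 559 in homozygous bright CMs, 854 and 505 in homozygous dim CMs, and 814 and 821 in heterozygous bright and dim CMs. Atp5k stood at 744 and 897 in control CMs, 493 and 371 in homozygous bright CMs, 461 and 359 in homozygous dim CMs, and 603 and 643 in heterozygous bright and dim CMs. For both genes M73 was the highest sum, and all 6 transgenic sums lay below both controls. The lowest sums were both from M116.

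Subunit c was counted mostly on Atp5g1. Stretches shared with other genes, whose reads are not counted, made up 92.3% of Atp5g1, 100% of Atp5g2 and 0% of Atp5g3. Shares of the paralogs are therefore shares of counts and do not show how much of each transcript was present. Atp5g1 stood at 4556 and 3000.4 in control CMs, 3116 and 2509 in homozygous bright CMs, 3458 and 2302 in homozygous dim CMs, and 2959 and 2763 in heterozygous bright and dim CMs. Atp5g3 stood at 2005 and 1609 in control CMs, 1623 and 1194 in homozygous bright CMs, 1779 and 1129 in homozygous dim CMs, and 1683 and 1489.7 in heterozygous bright and dim CMs. Atp5g2 stood at 108 and 54.5 in control CMs, 96.7 and 70.7 in homozygous bright CMs, 89.0 and 65.2 in homozygous dim CMs, and 84.7 and 65.5 in heterozygous bright and dim CMs. Of the counts on the 3 paralogs, Atp5g1 took 68.3% and 64.3% in control, 64.4% and 66.5% in homozygous bright, 64.9% and 65.8% in homozygous dim and 62.6% and 64.0% in heterozygous bright and dim CMs. Atp5g3 took 30.1% to 35.6% and Atp5g2 1.17% to 2.00%. The Atp5g2 share was higher in both homozygous mice than in both controls, at 1.94% ± 0.0891 (SD, n = 2) in bright, 1.77% ± 0.137 in dim and 1.39% ± 0.316 in control CMs, with differences of 0.544 and 0.376 percentage points. An exact permutation test, two-sided as all such tests here, gave p = 0.333 for either, and 2 mice against 2 allow no smaller value. For Atp5g1 and Atp5g3 the groups overlapped (exact permutation p = 1 against control).

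The peripheral stalk, which holds the head still, consists of Atp5f1 (subunit b), Atp5h (d), Atp5j (F6) and Atp5o (OSCP). Their levels ranged from 509 to 2714 normalized CPM, and those of Atp5h, Atp5j and Atp5o were highest in M26 and lowest in dim CMs of M116. The other members of complex V were Atp5d (delta), at 869 to 1449, and the small membrane subunits Atp5j2 (f), Atp5l (g), Atp5md and Atp5mpl, at 59.7 to 1836. The map of all members shows this gradient, with the small subunits lowest in M116.

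**Figure D1:**
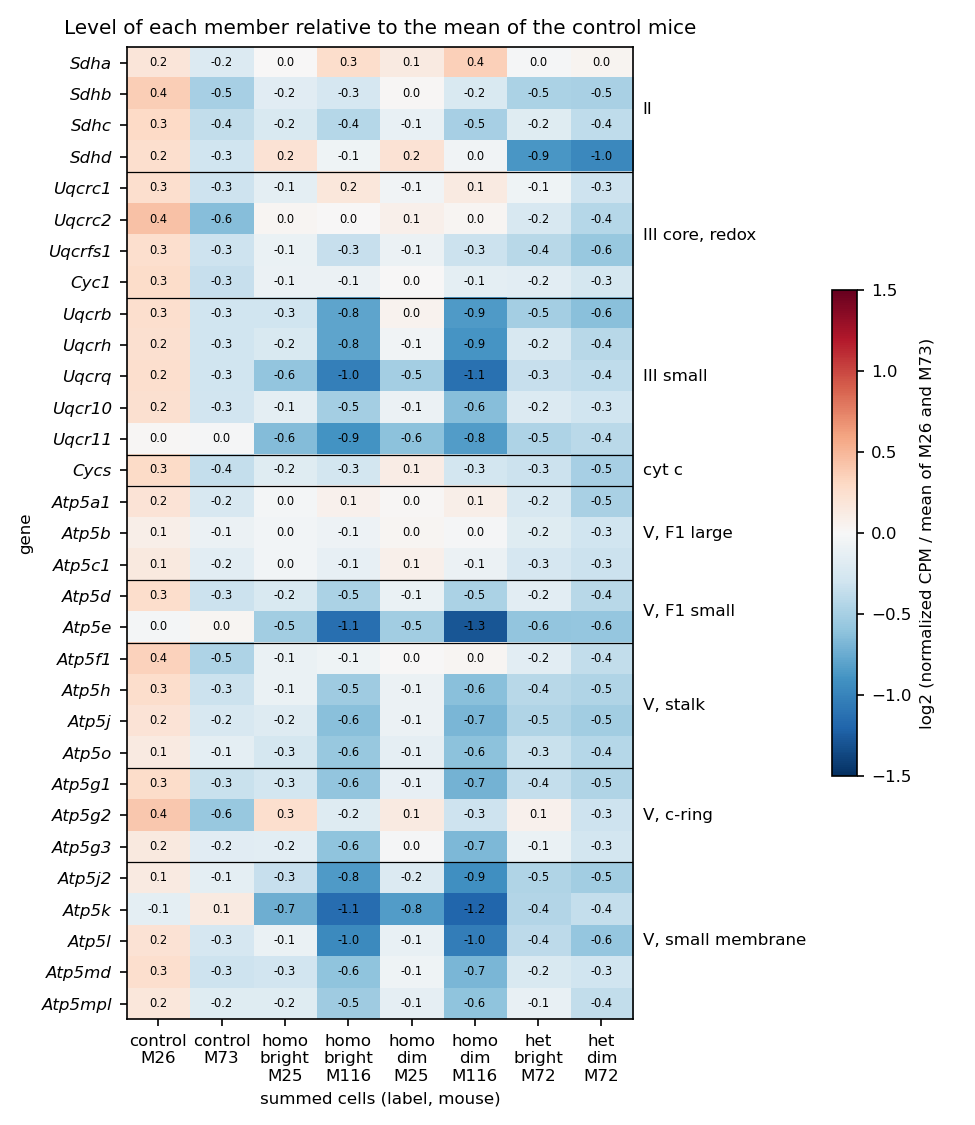
Level of each of the 31 genes (rows, grouped by complex and role) in the 8 sums of cells (columns, label and mouse), as log2 of normalized CPM over the mean of control mice M26 and M73. Blue cells lie below that mean: Uqcrq, Uqcr11, Atp5e and Atp5k are blue in all 4 homozygous sums, and Sdha, Uqcrc1, Atp5a1 and Atp5b are near white.

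Per kb of coding length, the scale on which genes can be compared, the median over the 8 sums was highest for Uqcr11 (12994 normalized CPM per kb), followed by Atp5g1 (7303) and Uqcrq (7224). It was lowest for Atp5g2 (177), Atp5l (317), Uqcrc2 (431) and Sdha (452). Stretches shared with other genes, whose reads are not counted, made up 100% of the coding sequence of Atp5g2 and of Atp5l. The share was 92.3% in Atp5g1, 1.01% in Uqcrc2 and 0% in Sdha. The places of Atp5g2, Atp5l and Atp5g1 are therefore ranks of counts, and the part of uncounted reads in them was not tested. Reads on untranslated parts of a transcript are counted too, so short coding sequences score high on this scale. The ranges over sums overlapped between Atp5g1 (5643 to 11168) and Uqcrq (4509 to 11637), and their order is not resolved.

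Homozygous bright CMs were compared with control CMs to ask how the respiratory chain genes stand in cells that carry much of the mutant protein. None of the 31 members passed edgeR's quasi-likelihood test at an adjusted p of 0.05, where 0.0164% of 12203 genes did. DESeq2, and limma on cell means, also called 0 members. At an unadjusted p under 0.05, 4 members were lower in homozygous bright CMs (12.9%, against 1.85% of all genes tested) and 0 were higher (against 4.7%). With library size alone or with equal weight for each cell, 0 members were lower at that level (against 0.803% and 0.86% of all genes). The 4 were Atp5k (log2 fold change -0.95 ± 0.30 (SE), edgeR adjusted p = 0.663), Atp5e (-0.82 ± 0.31, 0.709), Uqcrq (-0.81 ± 0.31, 0.72) and Uqcr11 (-0.79 ± 0.26, 0.663). The highest values were 0.12 ± 0.28 for Sdha, 0.06 ± 0.30 for Sdhd and 0.03 ± 0.45 for Atp5g2. Between the same sums, all 6 endothelial markers had a log2 fold change below 0 (median -0.84). Of these, 4 lay below both controls (against 14.8% of all genes tested). All 6 fibroblast markers were above 0 (median 3.67), 1 of them above both controls (against 24.3%). Of 3 smooth muscle and pericyte markers tested, 2 lay below both controls and 1 was above 0. Among them, Rgs5 stood at -1.80 ± 0.50 (edgeR adjusted p = 0.663). The 1 immune marker tested stood at -5.30, below both controls. What all these markers contribute to the members' values was not tested.

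The log2 fold change was below 0 for 25 members and above 0 for 6, with a median of -0.34, against 0.11 over all genes tested and -0.17 over 1135 other protein-coding genes at or above the level of the lowest member. With library size in place of TMM the median of all genes rose to 0.41 and that of the members to -0.04, so that 18 members lay below 0 and 13 above, and the distance from all genes was -0.45 against -0.44 with TMM. Both homozygous mice lay below both controls for 11 members (35.5%, against 14.8% of all genes tested) and above both for 0 (against 24.3%). The 11 were Uqcrq, Uqcr11, Uqcrb, Atp5k, Atp5e, Atp5j2, Atp5md, Atp5o, Atp5j, Atp5g3 and Atp5mpl. Scaled over all 8 sums, 6 of them did (Uqcrq, Uqcr11, Atp5k, Atp5e, Atp5j2, Atp5o; 19.4%, against 11.1%).

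The mice differed in how far the members moved. Between M25 and M26, which share a library code, all 31 were lower in the homozygous mouse, with a median of -0.38 (all genes tested 0.02). Between M116 and M73, 21 were lower and 10 higher, with a median of -0.27 (all genes tested 0.49). Without M26 the median over the members was -0.07 and without M73 it was -0.54, without M116 -0.19 and without M25 -0.48. The size of the median thus depended strongly on which control mouse was kept. Relative to all genes tested, these medians were -1.004, -0.74, -0.21 and -0.65. Without M116, 0 members were lower at an unadjusted edgeR p under 0.05 (against 1.01% of all genes tested), without M73 there were 6 (19.4%, against 2.45%) and without M26 3 (9.68%, against 9.74%). These fits take the spread of the group with 1 mouse from the group with 2.

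By role, the 4 lowest values were those of small subunits, but the values of small and other subunits overlapped, as Atp5g1 (-0.44), Atp5o (-0.43) and Atp5j (-0.41) stood below the small subunits Uqcr10 (-0.33), Atp5d (-0.37) and Atp5mpl (-0.37). The 5 small complex III subunits (median -0.54, range -0.81 to -0.33) and the 5 small membrane subunits of ATP synthase (median -0.49, range -0.95 to -0.37) were all below 0, 3 and 4 of them below both controls in both mice. The pair Atp5d and Atp5e had -0.37 and -0.82, the peripheral stalk a median of -0.36 and the c-ring of -0.38. The core proteins of complex III stood at 0.01 each, the redox subunits Uqcrfs1 and Cyc1 at -0.23 and -0.10, Cycs at -0.25, and Atp5a1, Atp5b and Atp5c1 between -0.10 and 0.00. In complex II, Sdhb had -0.23 and Sdhc -0.34.

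In dim CMs of the same mice, compared with the same control sums, the values were close to those of bright CMs. None of the 31 passed the edgeR test (0% of 12195 genes did), nor DESeq2 or limma, and 3 were lower at an unadjusted p under 0.05 (9.68%, against 1.83%) and 0 higher (against 4.4%). With library size alone or with equal weight for each cell, 0 were lower at that level (against 0.779% and 0.812%). Atp5k had -1.02 ± 0.31 (edgeR adjusted p = 0.735), Atp5e -0.87 ± 0.35 (0.768) and Uqcr11 -0.74 ± 0.29 (0.755), and Uqcrq had -0.80 ± 0.36 (0.862). The median was -0.33, against 0.10 over all genes tested, with 25 members below 0 and 6 above. With equal weight for each cell the median was 0.01, against 0.49 over all genes, and 15 members were below 0. It was -0.0211 without M26, -0.52 without M73, -0.0820 without M116 and -0.57 without M25, and without M116 there were 0 members lower at an unadjusted edgeR p under 0.05 (against 1.05% of all genes tested), in a fit that takes the spread of the lone mouse from the controls. Relative to all genes tested, the medians without M26, M73, M116 and M25 were -0.94, -0.70, -0.11 and -0.75. Both homozygous mice lay below both controls for 6 members (19.4%, against 14.2%) and above for 0 (against 23.8%). Scaled over all 8 sums, they lay below both for 5 (16.1%, against 10.8%). Since bright and dim CMs share their control sums, the likeness of both comparisons is not independent evidence. In M25, whose dim CMs had 10.7 CPM of human BAG3, Atp5k stood at 461 normalized CPM in dim and 493 in bright CMs, both below the controls. Of the markers of other cells, all 5 immune markers tested lay above both controls in dim CMs (median 4.10). Of these, 3 had an unadjusted edgeR p under 0.05. Endothelial markers were above 0 for 5 of 6 (median 0.11), fibroblast markers for 5 of 6 (median 0.40). Smooth muscle and pericyte markers were above 0 for 2 of 3 tested. The part of these lists in the members' values was not tested.

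A ratio within a sum needs no scaling between sums. The counts on 12 small subunits (Uqcrb, Uqcrh, Uqcrq, Uqcr10, Uqcr11, Atp5d, Atp5e, Atp5j2, Atp5k, Atp5l, Atp5md, Atp5mpl) were divided by those on 9 large catalytic and core subunits (Sdha, Sdhb, Uqcrc1, Uqcrc2, Uqcrfs1, Cyc1, Atp5a1, Atp5b, Atp5c1), a division chosen after the values were seen. It was 0.741 in M26 and 0.797 in M73, 0.602 and 0.448 in homozygous bright CMs of M25 and M116, 0.617 and 0.424 in their dim CMs, and 0.693 and 0.724 in bright and dim CMs of M72. Both homozygous mice lay below both controls, and the heterozygous mouse lay between. The means were 0.525 ± 0.109 (SD, n = 2) in bright, 0.521 ± 0.137 in dim and 0.769 ± 0.0395 in control CMs. The p of the exact permutation test was 0.333 against control for either label, the smallest possible with 2 mice a group, and since the division was chosen on these values it is a description.

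Homozygous mice also lay below both controls over complex III alone (1.45 and 1.72 in control, 0.869 to 1.29 in homozygous, 1.37 and 1.499 in heterozygous CMs) and over complex V alone (0.535 and 0.544, 0.301 to 0.437, 0.493 and 0.506). The same held over the 6 small and 8 large genes without stretches shared with other genes (0.359 and 0.378, 0.201 to 0.290, 0.345 and 0.354). The cells of M116 carry a pair of library codes, and by code the ratio was 0.419 and 0.476 in its bright and 0.418 and 0.433 in its dim CMs. Both codes come from 1 animal, so these values show no spread between mice.

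Among single cells the quartiles of the ratio were 0.617 and 0.847 in M26, 0.667 and 0.920 in M73, 0.485 and 0.692 in bright and 0.504 and 0.757 in dim CMs of M25, and 0.388 and 0.563 in bright and 0.381 and 0.474 in dim CMs of M116. In the heterozygous mouse they were 0.641 and 0.831 in bright and 0.658 and 0.836 in dim CMs. Cells of M25 overlapped widely with control cells, whereas the upper quartile of M116 lay below the lower quartile of both controls. Within the transgenic sums, Spearman's rho of the ratio with human BAG3 CPM over cells was -0.62 in bright CMs of M25 (21 cells, with -0.31 for the total count), between -0.32 and -0.25 in the other homozygous sums (18 to 59 cells) and -0.07 and -0.09 in M72, where rho with the total count was -0.58 in both sums. In the controls, with human BAG3 near 0, it was -0.26 in M26 (24 cells) and -0.41 in M73 (9 cells). With the total count, rho was -0.45 in dim CMs of M25, -0.32 in bright and -0.01 in dim CMs of M116, 0.07 in M26 and -0.08 in M73. With the share of ribosomal RNA, rho of the ratio was 0.78 in M73, 0.60 in dim CMs of M72, 0.45 in bright CMs of M25, 0.33 in dim CMs of M116 and 0.16 in bright CMs of M72, and it was -0.06 in M26, 0.01 in bright CMs of M116 and 0.02 in dim CMs of M25. The cells of a sum share a mouse, and these values are descriptions.

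**Figure D2:**
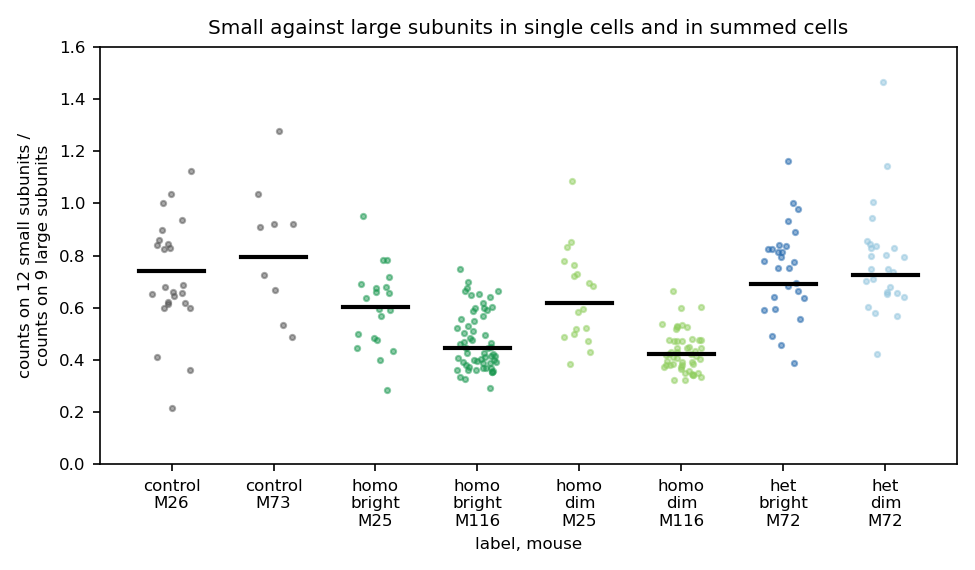
Counts on the 12 small subunits over counts on the 9 large subunits, in each cell (points) and in the summed cells (black bars), by label and mouse. The bars stand at 0.741 and 0.797 in the controls and at 0.424 to 0.617 in the homozygous mice; 1 bright cell of M25, at 24.7, lies outside the axis.

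Across the 31 members, the log2 fold change against control was higher for longer coding sequences, with Spearman's rho of 0.79 in homozygous bright and 0.83 in homozygous dim CMs. Within complexes it was 0.83 and 0.90 over the 9 members of complex III and 0.78 and 0.84 over the 17 of complex V. Over all protein-coding genes tested it was 0.01 (10634 genes) and 0.02 (10688 genes), and over those at or above the level of the lowest member, without the members, -0.04 (1135 genes) and -0.01 (1174 genes). Genes of a sum share their library and base composition, and no p is given. For coding lengths under 300 bases, the median for bright against control was -0.60 over 9 members and -0.34 over 68 other genes at or above the lowest member's level. For lengths from 1200 to under 2400 bases it was 0.01 over 5 members and -0.12 over 273 other genes, and from 2400 bases on, where no member lies, it was -0.33 over 182 other genes, as low as in the shortest class. The membrane anchors Sdhc and Sdhd and the c subunit Atp5g2, of middle length (507, 477 and 438 bases), had -0.34, 0.06 and 0.03, and Atp5e, the shortest at 156 bases, belongs to F1.

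**Figure D3:**
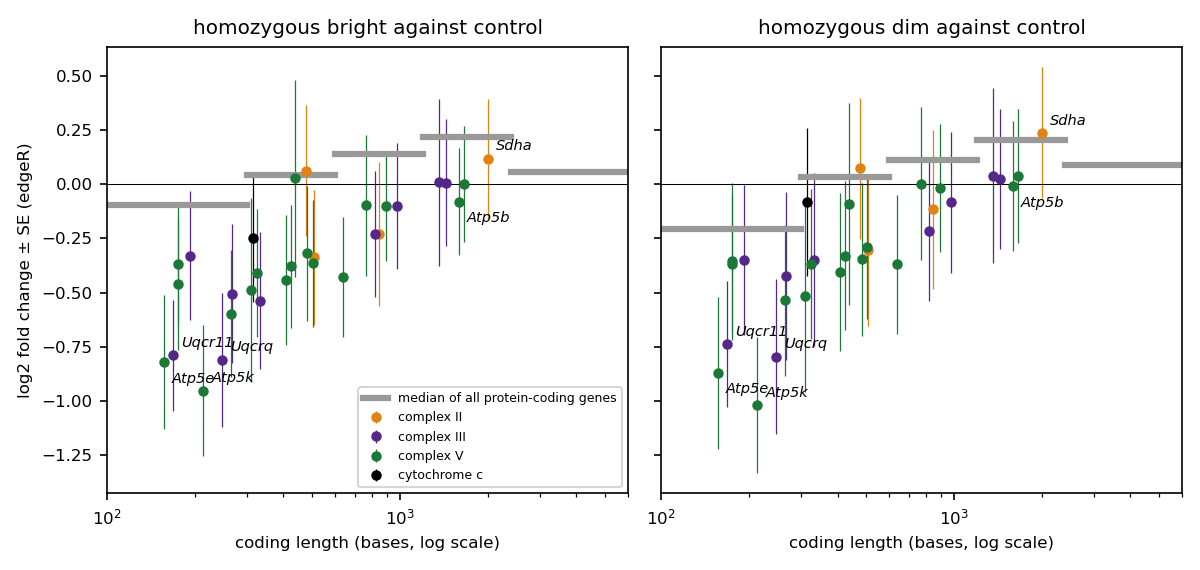
Log2 fold change ± SE (edgeR) of the 31 genes against coding length in bases (log scale), for homozygous bright (left) and dim (right) against control CMs, coloured by complex. Grey bars are medians of all protein-coding genes in 5 length classes; the members run from -0.82 and -0.87 for Atp5e, the shortest, to 0.12 and 0.24 for Sdha, the longest.

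Bright and dim CMs of the same homozygous mice were compared to ask whether the members follow the transgene within a heart. None of the 31 passed the edgeR test without or with the mouse as a replicate block (0% of 13439 genes did without it), nor DESeq2 or limma, and 0 members had an unadjusted p under 0.05, lower (against 2.09%) or higher (against 2.03%). The median was -0.04 (all genes tested -0.01), and the values ranged from -0.19 for Uqcrb to 0.11 for Atp5g2. Bright CMs were lower than dim CMs in both mice for 12 members (38.7%, against 25.4%) and higher in both for 3 (9.68%, against 25.4%). The 3 were Atp5g2, Atp5k and Atp5l. In M25, 28 of 31 were lower in bright CMs (median -0.09), and in M116, 12 were lower and 19 higher (median 0.04). Leaving out 1 sum turned the median, to 0.09 without bright CMs of M116 and to 0.21 without dim CMs of M25. The other label of that mouse stays in such a fit. Bright against dim can then not be told apart from M25 against M116. Markers of other cells differed between the same sums: endothelial markers made up 155 to 161 CPM in bright and 322 to 451 CPM in dim CMs, and 5 of 6 had an unadjusted p under 0.05, as did 4 of 5 immune markers tested, while CM markers had a median of -0.03. All 6 fibroblast markers had a log2 fold change above 0 in bright CMs (median 3.26), none at an unadjusted edgeR p under 0.05, and their summed level was 2473 CPM in bright against 62.9 CPM in dim CMs of M25 and 74.5 against 215 CPM in M116. Summed erythroid markers were 4.02 CPM in bright against 345 CPM in dim CMs of M25 and 0.173 against 0.813 CPM in M116, and 1 of 3 tested had an unadjusted edgeR p under 0.05, as did 2 of 3 smooth muscle and pericyte markers (Rgs5, Pdgfrb), all lower in bright CMs. The part of these markers in the members' values was not tested.

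Of the 12 lower in both mice, Cycs had the lowest log2 fold change, -0.17 ± 0.21 (SE), with levels of 968 against 1189 normalized CPM in M25 and 906 against 907 in M116. Sdha followed with -0.12 ± 0.19, at 845 against 930 and 1013 against 1084, and Sdhb with -0.12 ± 0.18, at 1659 against 1892 and 1567 against 1599. The edgeR adjusted p was 0.999 for all 3. In the heterozygous mouse, bright CMs were higher than dim CMs for 27 of 31 members, with a median of 0.10 (all genes 0), and lower for Uqcr11, Atp5e, Atp5k and Sdha. Uqcr11 stood at 2297 against 2398, and Sdha at 837 against 869. In this mouse human BAG3 counts were lower in the cells labelled bright. Its bright and dim sums also differed in markers of other cells, with 493 against 39.0 CPM on fibroblast, 987 against 0.886 CPM on erythroid, 25.1 against 3.25 CPM on immune and 237 against 443 CPM on endothelial markers. The part of these in the members' values was not tested.

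By complex, the share of all counts was 0.457% and 0.263% in M26 and M73 for complex II, 0.402% and 0.413% in homozygous bright, 0.436% and 0.414% in homozygous dim and 0.301% and 0.318% in heterozygous bright and dim CMs. For complex III with cytochrome c, the controls took 1.83% and 1.21%, homozygous bright CMs 1.47% and 1.39%, dim CMs 1.57% and 1.34%, and heterozygous CMs 1.32% and 1.34%. For complex V the values were 3.31% and 2.35%, 3.01% and 2.79%, 3.16% and 2.73%, and 2.51% in both heterozygous sums. M26 was highest and M73 lowest for each complex, so that the groups overlapped against control (exact permutation p = 1 for each complex). Without M73 each homozygous mean was below control, by differences of -0.0501 and -0.0326 percentage points in bright and dim CMs for complex II and of -0.403 and -0.360 for complex V, and without M26 each was above, by 0.145 and 0.162 and by 0.551 and 0.594.

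Bright CMs of homozygous mice had 0.407% ± 0.00729 (SD, n = 2) on complex II and dim CMs 0.425% ± 0.0153. Bright CMs were lower in both mice, and the difference of -0.0174 percentage points had an exact permutation p of 0.5 with the 2 mice as pairs, the smallest that 2 pairs allow. Without the ribosomal RNA rows, the shares of complex V were 3.90% and 3.37% in the controls, 3.55% and 3.42% in homozygous bright, 3.73% and 3.37% in homozygous dim and 3.35% and 3.33% in heterozygous CMs. The means of bright and dim CMs then differed from that of the controls by -0.149 and -0.0856 percentage points, against 0.0741 and 0.117 over all counts. In M116, complex V took 2.699% and 2.89% of the counts of bright CMs under its pair of library codes, which lie farther apart than the means of bright and control CMs over all counts.

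**Figure D4:**
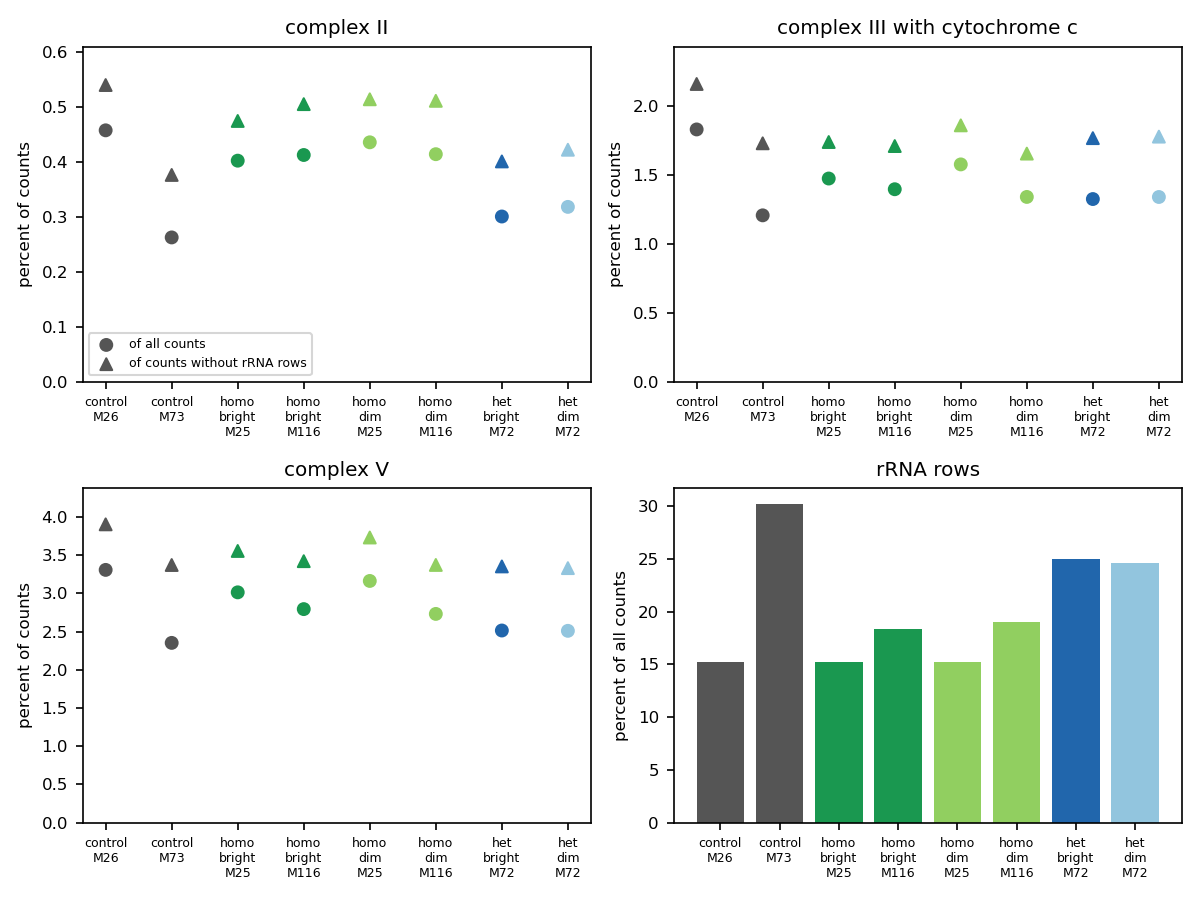
Percent of counts on the members of complex II, complex III with cytochrome c, and complex V in the 8 sums, of all counts (circles) and of counts without ribosomal RNA rows (triangles), and percent of all counts on ribosomal RNA rows (bars). M73 has the lowest shares (0.263%, 1.21% and 2.35%) and the highest ribosomal RNA share (30.2%).

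Per cell, the members took a median of 5.58% of counts in M26, 3.90% in M73, 5.14% and 4.54% in bright CMs of M25 and M116, 5.07% and 4.52% in their dim CMs and 4.16% and 4.01% in bright and dim CMs of M72. A count on all 31 members was present in the median cell of each sum. The shares of complex III and complex V went together over the cells of every sum, with Spearman's rho of 0.27 (M26, 24 cells) to 0.76 (dim CMs of M72, 26 cells), and those of complex II and complex V with 0.31 to 0.72. These are parts of the same total, so they also share its other contents. The summed share of the members was lower in cells with a higher share of ribosomal RNA in all 8 sums, with rho from -0.21 (bright CMs of M25, 21 cells) to -0.68 (M73, 9 cells) and -0.69 (dim CMs of M72, 26 cells).

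Complex III needs cytochrome b, which mitochondrial DNA encodes. The ratio of counts on the 9 nuclear members of complex III to counts on CYTB was 0.508 and 0.717 in M26 and M73, 0.444 and 0.467 in homozygous bright, 0.458 and 0.419 in homozygous dim and 0.644 and 0.741 in heterozygous bright and dim CMs. Both homozygous mice lay below both controls, at 0.455 ± 0.0161 (SD, n = 2) in bright and 0.439 ± 0.0277 in dim against 0.613 ± 0.148 in control CMs. The exact permutation p was 0.333 for both, the smallest possible. Within the library code of M25 and M26 the ratio was 0.508 in control CMs against 0.444 and 0.458, and within that of M73 and M72 it was 0.717 against 0.644 and 0.741. CYTB had a log2 fold change of -0.04 ± 0.37 (edgeR adjusted p = 0.996) in homozygous bright CMs. The corresponding subunits of complex V had 301 (ATP6) and 10 (ATP8) counts in the whole table, 0 of them in M73, and no ratio is given.

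The genes that act with these complexes were read by the same counts. Of 14 assembly factors, 8 were below 0 and 6 above in homozygous bright against control CMs (median -0.23), 4 below both controls (against 14.8% of all genes tested) and 1 above both (against 24.3%), and 0 passed the edgeR test. The 4 were Uqcc2 and Uqcc3 (for complex III) and Atpaf1 and Fmc1 (for F1), and the 1 was Atpaf2, the chaperone of the alpha subunit, with 1.25 ± 0.51 (edgeR adjusted p = 0.761). Atpif1, the inhibitor of ATP hydrolysis, stood at 0.02 ± 0.34 (edgeR adjusted p = 0.996). Of the 6 carriers and channels that export ATP and import phosphate (Slc25a4, Slc25a5, Slc25a3, Vdac1, Vdac2, Vdac3), 2 were below 0, 0 below both controls, and the median was 0.11.

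The nuclear subunits of the neighbouring complexes had medians like those of the members. Of 40 complex I subunits tested, 38 were below 0 in homozygous bright CMs, 25 of them below both controls in both mice, with a median of -0.42, and of 17 complex IV subunits 15 and 9, with a median of -0.44. Of all genes tested, 45.9% were below 0 and 14.8% below both controls. None passed the edgeR test. Over these subunits with a coding length (54 genes), rho of the log2 fold change with length was 0.36 for bright and 0.43 for dim CMs. Of the CM markers, 8 of 8 were below 0 and 6 below both controls in bright CMs, with a median of -0.71, and 7 of 8 and 5 in dim CMs (median -0.67), where 14.2% of all genes lay below both controls. Their part in the lower values of the members was not tested.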

How the data were processed

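Single CMs were read by SMART-seq2, and the authors mapped each cell's reads with STAR to the mouse genome plus human BAG3 and eGFP sequences and took STAR's gene counts. The deposited table holds these raw counts, as whole numbers. Genome build, annotation and strand column are not given in the sources used here, and 55065 of 55538 features were named in GENCODE M21, from which positions and coding lengths come.

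Counts were summed per mouse and label. This gave 2 sums from separate animals for control, homozygous bright and homozygous dim CMs, and 1 sum for each heterozygous label. Each comparison used its 4 sums in edgeR 4.0.16 under R 4.3.3 (filterByExpr, TMM, glmQLFit, glmQLFTest, Benjamini-Hochberg adjustment over all genes tested, threshold 0.05). Levels by sum were scaled over all 8 sums, and fold changes over the 4 of a fit. Shares and ratios were compared by exact permutation tests (scipy 1.17.1). DESeq2 1.42.0, limma 3.58.1 and a Wilcoxon test over cells were alternatives, and the edgeR step was tested on simulated data. Bright and dim sums of a mouse are paired by the animal, and their deviations from the group means correlated with r = 0.13 over 7246 genes with at least 1 CPM and r = 0.93 over the members. The members and gene lists were chosen with earlier results of these data known. Values in every sum are given for complex II, the core and redox subunits of complex III, Cycs, ATP synthase alpha, beta, gamma and c, and the 3 members with the lowest and the 3 with the highest log2 fold change in homozygous bright CMs, and other members are given by range. The values of Uqcr11, the division into small and large subunits and the comparison with coding length were chosen after the values were seen.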

Additional observations from a re-analysis of the deposited data

Results flagged for a closer look

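Between bright and dim CMs, 10 members were lower in the bright CMs of both homozygous mice and higher in those of the heterozygous mouse (Sdhb, Sdhd, Uqcrc2, Uqcrfs1, Atp5a1, Atp5b, Atp5c1, Atp5d, Atp5f1 and Cycs), which is 32.3% of the 31, against 12.9% of 13394 genes, and 1 member, Atp5k, went the opposite way (3.23%, against 13.1%). The difference between homozygous and heterozygous mice was not tested, since only M72 was heterozygous. The log2 ratio of bright to dim CMs was -0.05 in M25, -0.03 in M116 and 0.24 in M72 for Atp5a1, and -0.30, -0.02 and 0.17 for Cycs. For Atp5k it was 0.09, 0.03 and -0.09. In M72 the CMs labelled bright had 105 CPM of human BAG3 and those labelled dim 251 CPM, whereas both homozygous mice had more in bright CMs.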

How the results depend on the processing

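No member passed the threshold under any alternative fitted to sums, and 0 did with the mouse as a replicate block in the paired comparison of bright with dim CMs, where the median log2 fold change of the members was -0.03. The block changed no other call. The Wilcoxon test over cells with Bonferroni adjustment, which treats cells as replicates, called 1 member (Atp5e) for bright and 3 (Uqcrq, Atp5e, Atp5k) for dim against control, all lower, which is 3.23% and 9.68% of the members, against 0.141% and 0.193% of the genes detected that the same test called lower. Over all genes, bright against control gave 2 calls with edgeR, 106 with DESeq2 and 163 without the filter, and dim against control 0, 55 and 58. Bright against dim gave 0, 89 and 217. With all 5 labels in 1 fit the counts against control were 5 for bright and 1 for dim CMs, and with the prefix of the library code as a block 10 and 12. Leaving out 1 sum at a time also changed the number of calls. Such fits take the spread of the group with 1 sum from the other group, so their numbers are not given.

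The median over the members for bright against control was -0.0377 with library size alone and -0.0562 with equal weight for each cell. For dim against control it was -0.36 with DESeq2, -0.0516 with library size alone, -0.29 without the filter, 0.0145 with equal weight, -0.31 with all 5 labels in 1 fit and -0.34 with the library code prefix as a block. Leaving out 1 sum removes a mouse from a comparison with control, but only 1 label of a mouse from bright against dim. For bright against dim, the medians with 1 sum left out at a time ranged from -0.22 to 0.21. Against control they ranged from -0.54 to -0.0682 for bright and from -0.57 to -0.0211 for dim CMs. Log2 fold changes in bright CMs then ranged from -0.36 to 0.58 for Atp5g2, from -0.0355 to 0.31 for Sdha and from -0.16 to 0.34 for Sdhd. Uqcrq, Uqcr11, Atp5e and Atp5k stayed below 0 under all alternatives tried.

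Differences in shares between bright and dim CMs with equal weight (the median over cells) were 6.82e-07 percentage points for complex II, 0.0186 for complex III with cytochrome c and 0.0577 for complex V. Without mitochondrially encoded genes, complex V differed from control by -0.113 in bright and -0.00769 in dim CMs, and without ribosomal RNA rows by -0.149 and -0.0856. With 1 sum left out, complex II ranged from -0.0501 to 0.145 (bright against control) and from -0.0326 to 0.162 (dim against control). Complex III with cytochrome c ranged from -0.395 to 0.228, from -0.371 to 0.251 and, for bright against dim, from -0.141 to 0.0946. Complex V ranged from -0.403 to 0.551, from -0.360 to 0.594 and from -0.259 to 0.172.

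Among the paralogs of subunit c with equal weight, the Atp5g1 share differed by 0.112 (dim against control) and -0.320 (bright against dim), and the Atp5g3 share by -0.535 (bright against control), -0.547 (dim against control) and 0.0113 (bright against dim). The ranges with 1 sum left out follow in the order bright against control, dim against control, bright against dim. Atp5g1 ranged from -2.85 to 1.13, from -2.93 to 1.05 and from -0.953 to 1.11. Atp5g3 ranged from -1.89 to 2.53, from -1.65 to 2.78 and from -1.21 to 0.722. For bright against dim, the ratio to CYTB ranged from -0.00330 to 0.0359 and the ratio of small to large subunits from -0.0923 to 0.101, and over complex III alone the latter differed by -0.0265. Against control, both ratios stayed lower in homozygous CMs under all alternatives tried. Shares without ribosomal RNA rows and all settings of the ratio of small to large subunits were added after seeing the data, and the planned ratio of complex V to ATP6 and ATP8 was not run, as M73 had 0 counts on them. The cause of these changes was not tested.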
